A study of Mus musculus with 8 samples.

Results

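The genes described here encode collagens, other structural proteins of the extracellular matrix, matrix metalloproteinases and their inhibitors, and were measured in the stomachs of mice after removal of the adrenal glands. A list of 41 such genes was matched by symbol to the deposited expression table of 24507 rows. All 41 were found, and all 41 passed the filter on low values that kept 16889 genes for testing. They fall into 12 classes, which are taken in turn below. Total RNA was sequenced from 4 stomachs taken 3 days after adrenalectomy and from 4 taken 3 days after a sham operation, which is the same surgery without the removal. All the mice were wild-type females of the inbred strain C57BL/6J, with no age in the labels. The adrenal glands make glucocorticoids, aldosterone and adrenaline, so adrenalectomy removes the adrenal source of all of these and not of glucocorticoids alone. Hormone levels are not part of the data used here. Nothing in the labels ties each sample to an animal of its own, so p-values reflect only how far these samples spread, which may be technical.

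The matrix of the stomach wall is made mainly by fibroblasts and smooth muscle cells, while epithelial and endothelial cells add to the basement membranes on which they rest. Fibrillar collagens give tensile strength, collagen IV and laminins form the sheets of the basement membrane, and collagen VI forms beaded filaments between them. Matrix metalloproteinases are zinc enzymes that cut these proteins, and tissue inhibitors of metalloproteinases, the Timp proteins, block them. Glucocorticoids are known to repress collagen and metalloproteinase genes in cultured fibroblasts.

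Values are the deposited log2 normalized values, which compress the differences of genes with low values. Log2 differences are those of adrenalectomy over sham, each with the standard error (SE) from limma fitted to all tested genes, and a gene is called when its p-value, adjusted with the Benjamini-Hochberg method over those genes, is under 0.05. Counts were not used here, so the depth of each sample is unknown. The tissue label fits the markers, as the summed log2 level of 11 gastric epithelial genes was 24.00 to 24.10 after adrenalectomy and 24.05 to 24.29 in sham stomachs. Of 5 genes that glucocorticoids induce, 4 fell after adrenalectomy, and for all 5 the groups did not overlap. Among all tested genes 0.782% fell, and the groups did not overlap for 12.4%. Samples differed in their levels of liver markers and of squamous epithelium and skeletal muscle markers. Averaged over 8 liver markers, the log2 value reached 14.67 in adrenalectomy replicate 1 and 9.70 to 12.09 in the remaining adrenalectomy stomachs, against 12.22 in sham replicate 4 and 9.54 to 9.64 in the remaining sham stomachs. The mean log2 value of 20 squamous epithelium and skeletal muscle markers was 9.18 to 10.24 after adrenalectomy, against 11.80 and 11.78 in sham replicates 2 and 3 and 9.66 and 10.18 in sham replicates 1 and 4. Adrenalectomy replicate 1 with sham replicates 2 and 3 are called the 3 samples rich in neighbouring tissue below. Squamous RNA may come from the forestomach, which is part of the mouse stomach, or from the oesophagus, and these were not told apart. Sham replicate 4 and adrenalectomy replicate 2, at mean liver marker values of 12.22 and 12.09, are not among the 3.

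Most matrix genes differed little between the groups, while 3 metalloproteinase genes, 1 collagen gene and 1 elastic fibre gene rose and 1 matricellular gene fell. Of the 41 genes, 5 rose and 1 fell, which is 14.6% of the list. Among all 16889 tested genes, 1.71% were called, 0.930% higher and 0.782% lower. The 41 genes were chosen with earlier results of these data known, so the shares here are a description and no test of the list. The groups did not overlap for 7 of the 41 genes, or 17.1%, against 12.4% of all tested genes. Of these 7, 6 were higher after adrenalectomy, 14.6% against 6.30% of all tested genes, and 1 was lower, 2.44% against 6.13%. The median log2 difference of the 41 genes was 0.03, against 0.00 over all tested genes, and the median absolute difference was 0.08, against 0.05. All tested genes include low ones, whose differences are compressed, and they were not matched in level to the 41 genes. Of the 35 genes that were not called, 22 differed by under 0.1 and 33 by under 0.2 on the log2 scale. With the 3 samples rich in neighbouring tissue removed, limma called 0 genes of the table, in smaller groups that give less power. In that fit 1822 genes of the table were at an unadjusted p under 0.05. Of the 41 matrix genes 8 were at such a p, against 11 with all samples. With single samples removed in turn, the calls that remained were those of Cilp, Col6a5 and Mmp23 without adrenalectomy replicate 1, Mmp23 without replicate 2, Col6a5 and Mmp23 without replicate 3, and none without replicate 4. Among sham samples, all 6 calls remained without replicate 1, those of Fbln1, Mmp14 and Mmp23 without replicate 2, none without replicate 3, and those of Col6a5 and Mmp2 without replicate 4. The highest adjusted p over these 8 settings was 0.0799 for Col6a5, 0.105 for Cilp, 0.0982 for Fbln1, 0.0737 for Mmp23, 0.103 for Mmp14 and 0.105 for Mmp2.

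**Figure D1:**
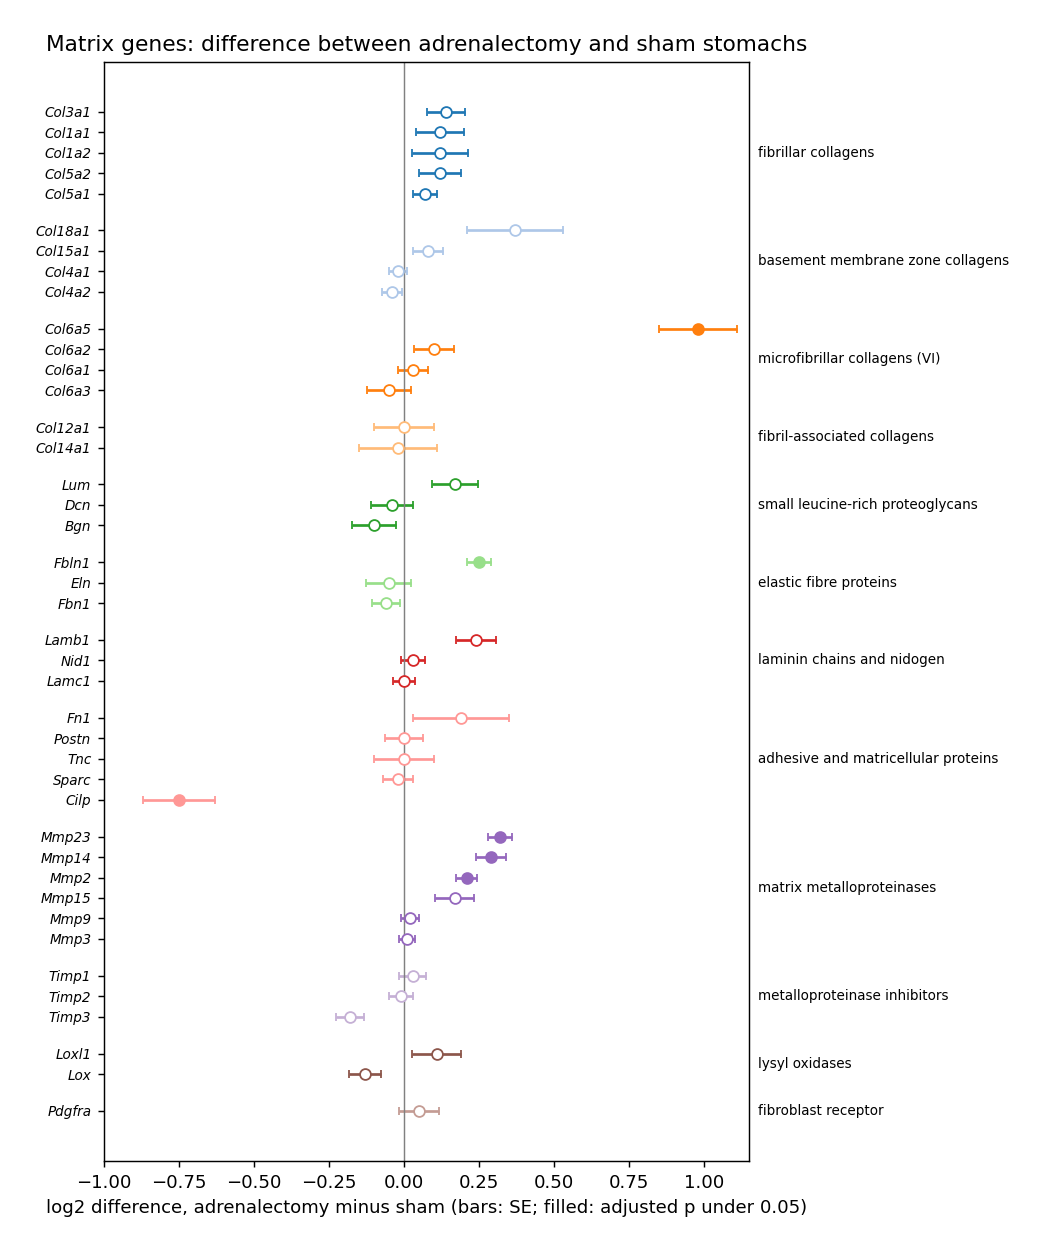
Log2 difference between adrenalectomy and sham stomachs (x axis, bars are SE) for the 41 matrix genes (y axis, by class), with filled points for genes past the threshold. Col6a5 stands at 0.98 and Cilp at -0.75, and the 3 filled metalloproteinases lie between 0.21 and 0.32.

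The genes span a wide range of levels, which were compared per kilobase of exon because longer transcripts give more reads. Length here is the union of all annotated exons of a gene, which can exceed its main transcript. Ranks between genes therefore depend on the annotation. On the scale of log2 mean linear value per kilobase over all 8 samples, Sparc, a collagen-binding matricellular protein, stood highest at 12.65, followed by the collagen III gene Col3a1 at 12.19 and the collagen VI gene Col6a1 at 11.65. The metalloproteinase genes spread from the level of the abundant collagens to the bottom of the list, with Mmp15 at 11.55, Mmp2 at 10.10, Mmp14 at 9.14, Mmp23 at 8.78, Mmp3 at 4.04 and Mmp9 at 3.88. The genes that changed were not the most abundant ones. Fbln1 ranked 13 of 41 in level per kilobase, Mmp2 ranked 20, Mmp14 27, Mmp23 31, Cilp 35 and Col6a5 38.

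**Figure D2:**
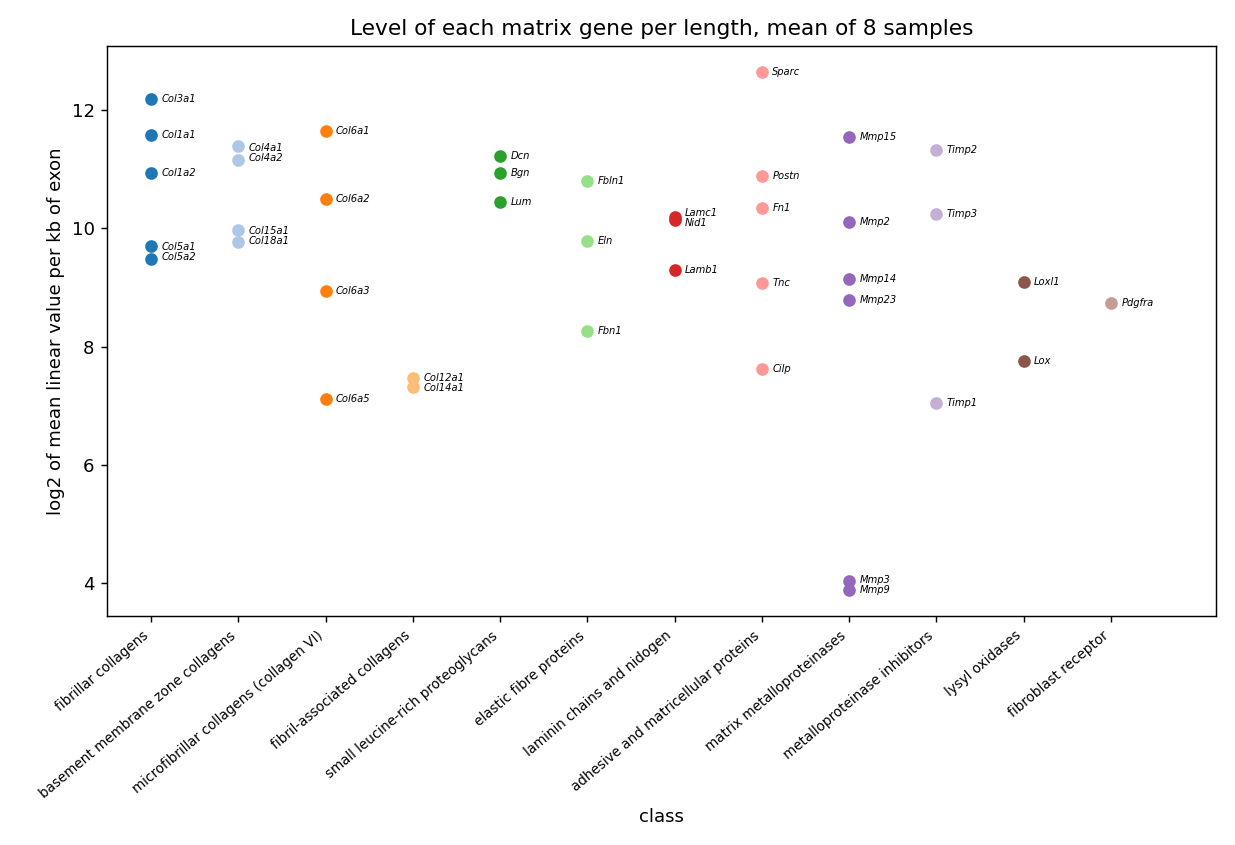
Level of each matrix gene as log2 of the mean linear value per kilobase of exon over all 8 samples (y axis), by class (x axis). Sparc and Col3a1 lie at the top, and Mmp3 and Mmp9 lie at the bottom, at 4.04 and 3.88.

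Collagen VI filaments are built from the chains of Col6a1 and Col6a2 with a further chain, commonly that of Col6a3, whose place the chain of Col6a5 can take. Col6a5 stood at log2 values of 10.57, 10.89, 10.55 and 10.96 in adrenalectomy stomachs, against 9.97, 9.80, 9.83 and 9.44 in sham stomachs. Every adrenalectomy sample was above every sham sample, and the lowest value was that of sham replicate 4. Col6a5 rose 1.97-fold (log2 difference 0.98 ± 0.13 SE, adjusted p = 0.0223), the largest difference among the 41 genes. The gene kept the call in 13 of 22 alternative settings, and its log2 difference stayed between 0.88 and 1.13 in all of them.

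None of the other 3 collagen VI chains was called. Col6a1 averaged 13.79 ± 0.077 after adrenalectomy and 13.76 ± 0.076 in sham stomachs (SD, n = 4 each), and the log2 difference of 0.03 had a 95% interval of -0.09 to 0.14. Col6a2 differed by 0.10 (adjusted p = 0.435), with an interval of -0.05 to 0.25, and Col6a3 by -0.05 (adjusted p = 0.714), with an interval of -0.22 to 0.11. These intervals lie below that of Col6a5, 0.67 to 1.29, although the difference between the chains was not itself tested. In the mouse genome Col6a5 lies between Col6a6 and Col6a4, which encode further collagen VI chains and are outside the list of 41. Col6a4 stood at 11.22, 11.32, 11.15 and 11.34 after adrenalectomy and at 11.10, 10.93, 10.84 and 11.15 in sham stomachs (log2 difference 0.25 ± 0.075 SE, adjusted p = 0.134). The groups met at 11.15, and Col6a4 did not pass. Col6a6 was low, at means of 5.24 and 5.21 in adrenalectomy and sham stomachs.

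Cilp encodes cartilage intermediate layer protein, a secreted matrix protein that binds transforming growth factor beta in human cartilage. It stood at 9.56, 9.06, 9.31 and 9.20 in adrenalectomy stomachs, against 9.85, 10.16, 10.15 and 9.94 in sham stomachs. The groups did not overlap, and sham replicates 2 and 3, the samples with most squamous and skeletal muscle RNA, were highest. Cilp fell to 0.596 times the sham level (log2 difference -0.75 ± 0.12 SE, adjusted p = 0.0301). In a fit that included the score of squamous and skeletal muscle markers its log2 difference was -0.64 (adjusted p = 0.150), and it was -0.71 (adjusted p = 0.233) without the 3 samples rich in neighbouring tissue. None of the other 4 adhesive and matricellular genes was called. Fn1, described below, had the largest log2 difference of these, 0.19 ± 0.16 SE. Postn and Tnc, which encode periostin and tenascin C, had log2 differences of 0.00 ± 0.062 SE and 0.00 ± 0.10 SE, and Sparc differed by -0.02 ± 0.050 SE.

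The sequences before the start sites of Col6a5 and Cilp, the genes with the largest rise and the largest fall, and of Mmp14 and Mmp3, a metalloproteinase that rose and a low one that did not pass, are shown for comparison. Each is the 250 bases before the start of transcription from RefSeq on GRCm38.p6, a later build than the mm9 of the deposited values, at chr9:105960644-105960893, minus strand for Col6a5, chr9:65264930-65265179, plus strand for Cilp, chr14:54431348-54431597, plus strand for Mmp14 and chr9:7445572-7445821, plus strand for Mmp3. Capitals mark matches, on either strand, to the glucocorticoid receptor palindrome, the AP-1 site TGANTCA, the TATA box TATAAA or the GC box GGGCGG.
Col6a5: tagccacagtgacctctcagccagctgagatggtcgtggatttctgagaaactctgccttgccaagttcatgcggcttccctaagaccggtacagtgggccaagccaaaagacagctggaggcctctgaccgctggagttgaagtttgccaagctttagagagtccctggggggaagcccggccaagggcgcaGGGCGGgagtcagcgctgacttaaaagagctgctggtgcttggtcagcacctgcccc
Cilp: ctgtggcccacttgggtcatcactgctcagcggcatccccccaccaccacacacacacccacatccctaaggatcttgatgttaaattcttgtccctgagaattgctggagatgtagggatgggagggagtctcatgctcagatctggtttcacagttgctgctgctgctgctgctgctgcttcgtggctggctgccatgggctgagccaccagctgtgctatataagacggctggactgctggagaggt
Mmp14: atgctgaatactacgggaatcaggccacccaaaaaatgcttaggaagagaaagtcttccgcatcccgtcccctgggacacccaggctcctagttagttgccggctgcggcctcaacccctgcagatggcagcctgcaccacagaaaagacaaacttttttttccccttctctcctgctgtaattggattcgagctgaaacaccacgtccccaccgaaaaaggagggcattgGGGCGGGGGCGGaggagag
Mmp3: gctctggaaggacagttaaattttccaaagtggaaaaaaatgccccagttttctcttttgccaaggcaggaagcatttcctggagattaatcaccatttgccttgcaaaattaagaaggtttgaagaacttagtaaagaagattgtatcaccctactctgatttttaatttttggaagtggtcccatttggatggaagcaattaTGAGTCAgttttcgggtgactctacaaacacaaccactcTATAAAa

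Mmp3 held an AP-1 match from 46 to 40 bases before the start and a match to TATAAA from 7 to 2 bases before it. It had 37.6% G and C. Mmp14 held a pair of adjacent GC boxes from 19 to 8 bases before the start, with 55.2% G and C. Col6a5 held a GC box 57 to 52 bases before the start, and the Cilp window held no exact match to the 4 motifs. The Cilp window does hold the related stretch tatataag, which the letters TATAAA do not match, so a TATA box there is not excluded. Of the 41 genes, 28 had a promoter in the RefSeq table, with 34 windows in all. The glucocorticoid receptor palindrome was in none of these windows and in 0.387% of the 32851 promoters of the table. The AP-1 site was in 5.88% of the 34 windows and 6.75% of all promoters, and the TATA box in 14.7% against 12.4%. The GC box was in 55.9% of the 34 windows, from 17 genes, against 32.7% of all promoters. Windows of 1 gene overlap where it has more than 1 start, and a match is a description of these letters only.

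**Figure D3:**
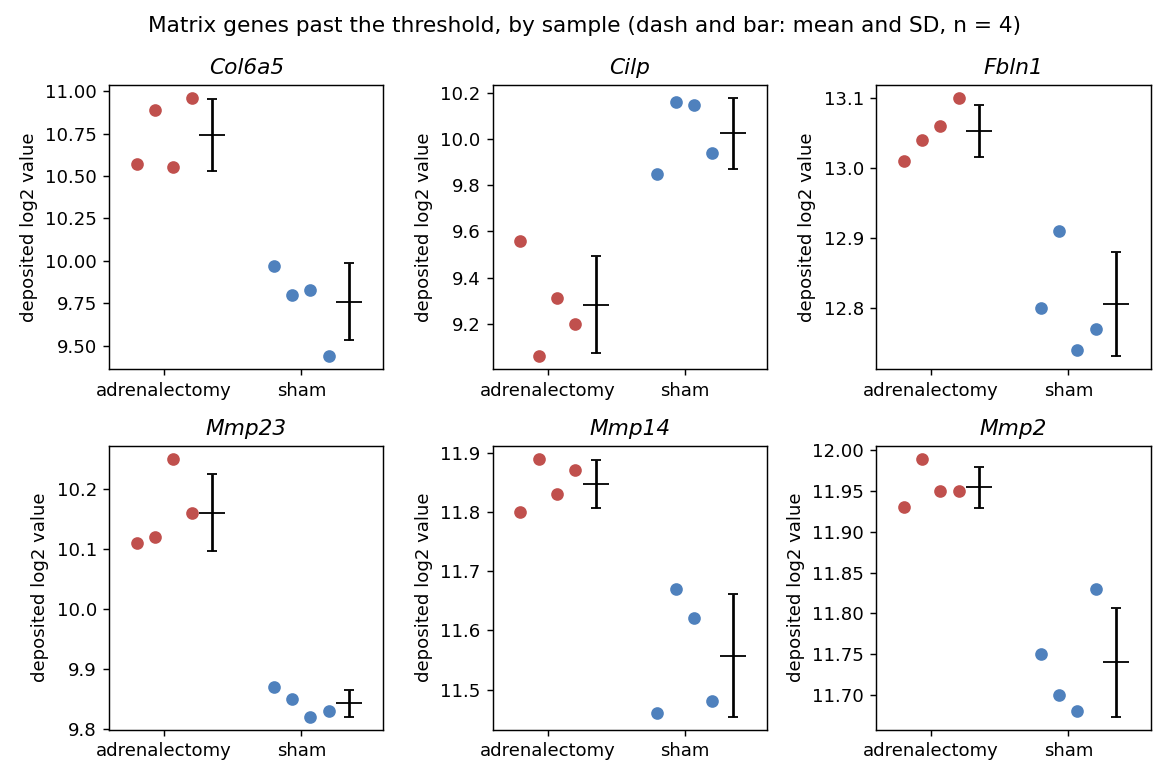
Deposited log2 values (y axis) of the 6 called genes in each adrenalectomy and sham stomach (x axis), with the mean and SD of each group beside the 4 samples. In each panel the groups do not overlap, with Cilp lower and the other genes higher after adrenalectomy.

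Of 6 matrix metalloproteinase genes, 3 rose and none fell, where 0.930% of all tested genes rose and 0.782% fell. The genes were chosen with earlier results of these data known, so these shares do not test the family. Of 29 other tested matrix proteases and inhibitors, further metalloproteinases among them, none was called. The median log2 difference of the 6 genes was 0.19, against 0.00 over all tested genes. Mmp14 encodes a membrane-anchored collagenase that activates the product of Mmp2, gelatinase A, at the cell surface. Mmp14 stood at 11.80, 11.89, 11.83 and 11.87 in adrenalectomy stomachs, against 11.46, 11.67, 11.62 and 11.48 in sham stomachs. The groups did not overlap, and Mmp14 rose 1.22-fold (log2 difference 0.29 ± 0.050 SE, adjusted p = 0.0393). Mmp2 stood at 11.93, 11.99, 11.95 and 11.95 in adrenalectomy stomachs, against 11.75, 11.70, 11.68 and 11.83 in sham stomachs. Sham replicate 4 came nearest to the adrenalectomy samples, which lay within 0.06 of each other, and Mmp2 rose 1.16-fold (log2 difference 0.21 ± 0.035 SE, adjusted p = 0.0325).

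Mmp23 encodes a membrane-bound metalloproteinase with an unusual domain order, which is shed when it is processed. It stood at 10.11, 10.12, 10.25 and 10.16 in adrenalectomy stomachs, against 9.87, 9.85, 9.82 and 9.83 in sham stomachs. The sham samples lay within 0.05 of each other, below all adrenalectomy samples. Mmp23 rose 1.25-fold (log2 difference 0.32 ± 0.039 SE, adjusted p = 0.0162), the smallest p-value of the 41 genes, and it kept the call in 14 of 22 alternative settings, against 10 for Mmp14 and 8 for Mmp2.

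Mmp15, which encodes another membrane-type enzyme and is the most abundant of the 6 per kilobase, stood at 14.01, 14.01, 14.18 and 14.05 in adrenalectomy stomachs, against 14.07, 13.86, 13.85 and 13.78 in sham stomachs. Sham replicate 1 overlapped the adrenalectomy samples, and Mmp15 did not pass (log2 difference 0.17 ± 0.065 SE, adjusted p = 0.203). Without sham replicate 1, Mmp15 was called (0.23 ± 0.046 SE, adjusted p = 0.0420). Mmp3, which encodes stromelysin 1, and Mmp9, which encodes gelatinase B, a product of neutrophils among other cells, were at the low end of the table, where the deposited scale compresses differences. Mmp3 averaged 4.89 ± 0.032 in adrenalectomy stomachs and 4.88 ± 0.043 in sham stomachs, and Mmp9 averaged 5.71 ± 0.027 and 5.69 ± 0.049 in the same groups (SD, n = 4 each).

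None of the 3 inhibitor genes was called. Timp3 encodes the inhibitor that binds tightly to the matrix. It stood at 13.13, 13.13, 13.20 and 13.27 in adrenalectomy stomachs, against 13.26, 13.46, 13.37 and 13.36 in sham stomachs. The groups overlapped by 0.01 and Timp3 did not pass (log2 difference -0.18 ± 0.047 SE, adjusted p = 0.0989). Without sham replicate 1 it was called lower (-0.21 ± 0.043 SE, adjusted p = 0.0446). Timp3 shares 1733 exon bases with Syn3 on the opposite strand in GENCODE M21, so without strand information reads in that shared stretch cannot be told apart. Timp2, whose product is an inhibitor and also helps Mmp14 to activate Mmp2, averaged 13.28 ± 0.0065 in adrenalectomy stomachs and 13.29 ± 0.089 in sham stomachs (SD, n = 4 each). Its log2 difference of -0.01 had a 95% interval of -0.10 to 0.09. Timp1, a low gene here at 6.89 ± 0.075 and 6.86 ± 0.045 in adrenalectomy and sham stomachs, differed by 0.03 (adjusted p = 0.753).

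Markers of other cell types moved with the groups beside these genes. Among all tested genes, 0.930% rose and 0.782% fell. Of 8 macrophage markers, 5 rose and none fell, and their summed log2 level was 13.16 to 13.37 after adrenalectomy and 12.85 to 12.93 in sham stomachs. Cd163 alone of these had a lower mean after adrenalectomy (log2 difference -0.15, adjusted p = 0.484). Of 10 smooth muscle markers, 3 fell and none rose, at summed log2 levels of 18.83 to 18.92 after adrenalectomy and 19.04 to 19.09 in sham stomachs. All markers of both lists passed the filter on low values. Fewer cells of a type and less RNA per cell cannot be told apart in these whole stomachs. Both scores separate the groups, and with either as a covariate limma called 0 genes in the table, with 881 genes at an unadjusted p under 0.05 for the macrophage score and 1327 for the smooth muscle score. With the macrophage and smooth muscle scores, in that order, Mmp14 had log2 differences of 0.32 and 0.42 (adjusted p = 0.899 and 0.570). Mmp2 had 0.24 and 0.09 (adjusted p = 0.899 and 0.814), and Mmp23 had 0.42 and 0.40 (adjusted p = 0.874 and 0.515). As the scores separate the groups, these fits cannot part the group from the score. What part these cells have in the rise of the 3 genes was not tested. Of 7 mast cell markers, Mcpt1, a mast cell protease gene, rose (log2 difference 1.16 ± 0.20 SE, adjusted p = 0.0393) and none fell. The summed log2 level of those 7 was 12.96 to 13.22 after adrenalectomy and 12.93 to 13.16 in sham stomachs. Of 7 neutrophil markers, 4 were too low to be tested, none of the other 3 was called, and the summed log2 level of those 3 was 7.39 to 7.72 after adrenalectomy and 7.51 to 8.28 in sham stomachs.

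Elastic fibres are built of elastin on a scaffold of fibrillin microfibrils, with fibulins attached. Fbln1, which encodes fibulin 1, a protein of elastic fibres and basement membranes, stood at 13.01, 13.04, 13.06 and 13.10 in adrenalectomy stomachs, against 12.80, 12.91, 12.74 and 12.77 in sham stomachs. The groups did not overlap, and Fbln1 rose 1.19-fold (log2 difference 0.25 ± 0.039 SE, adjusted p = 0.0310). The elastin gene Eln differed by -0.05 ± 0.075 SE and the fibrillin 1 gene Fbn1 by -0.06 ± 0.047 SE. The groups overlapped for each, with adjusted p-values of 0.757 and 0.513.

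Fibrillar collagen genes had higher means after adrenalectomy in all 5 genes, with a median log2 difference of 0.12, and none was called. Col3a1 stood at 15.54, 15.47, 15.54 and 15.68 in adrenalectomy stomachs, against 15.46, 15.33, 15.31 and 15.55 in sham stomachs. Adrenalectomy replicate 4 and sham replicate 4 were the highest of their groups, and the groups overlapped (log2 difference 0.14 ± 0.063 SE, adjusted p = 0.263). The collagen I genes Col1a1 and Col1a2 both differed by 0.12, with 95% intervals of -0.06 to 0.31 and -0.09 to 0.33. The collagen V genes Col5a1 and Col5a2, which form part of the same fibrils, differed by 0.07 ± 0.041 SE (adjusted p = 0.363) and 0.12 ± 0.070 SE (adjusted p = 0.394). Averaged over the 5 genes, the log2 value was 14.01, 13.97, 13.99 and 14.17 in adrenalectomy stomachs and 13.97, 13.85, 13.79 and 14.06 in sham stomachs. The median moved to 0.01 with the macrophage score as a covariate and to -0.18 with the smooth muscle score. Both scores separate the groups, so these fits cannot part the group from the score, and no conclusion is drawn from the shifts. The fibril-associated collagen genes Col12a1 and Col14a1, whose products coat such fibrils, differed by 0.00 ± 0.10 SE and -0.02 ± 0.13 SE.

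**Figure D4:**
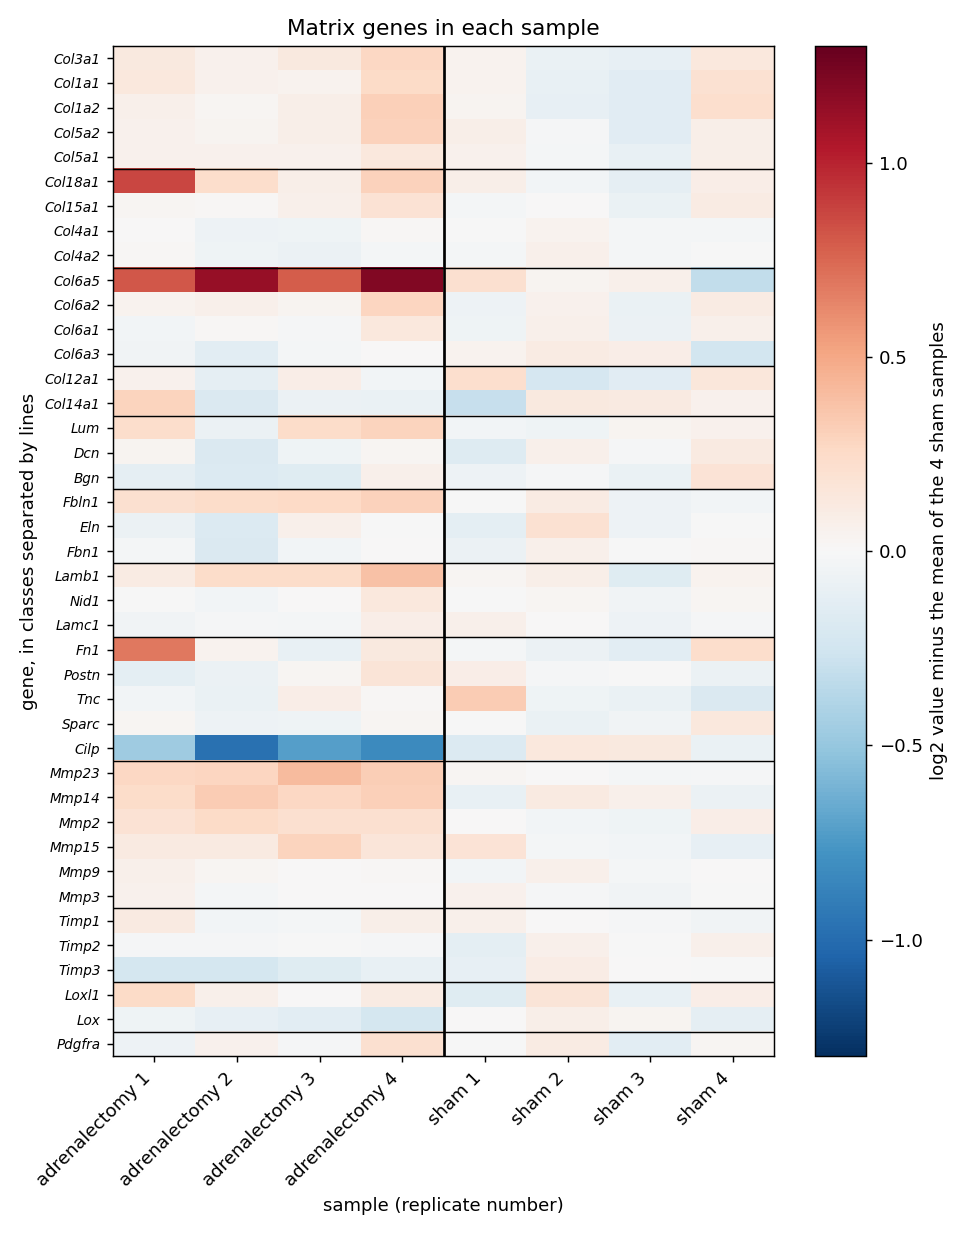
Log2 value of each of the 41 genes minus its mean in the 4 sham samples (colour), by gene (rows, classes separated by lines) and sample (columns, adrenalectomy left of sham). Col6a5 is high and Cilp low in all 4 adrenalectomy samples, Mmp23, Mmp14 and Mmp2 are evenly raised, and Col18a1 and Fn1 stand out in adrenalectomy replicate 1.

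Among the collagens of the basement membrane zone, none was called. Col4a1 and Col4a2, whose chains assemble into the collagen IV network, start 21 bases apart on opposite strands. Col4a1 averaged 14.28 ± 0.041 in adrenalectomy stomachs and 14.30 ± 0.036 in sham stomachs, and Col4a2 averaged 13.85 ± 0.046 and 13.89 ± 0.048 in the same groups (SD, n = 4 each). The 95% intervals of their log2 differences, -0.09 to 0.04 and -0.12 to 0.03, are among the narrowest of the list. Col15a1 differed by 0.08 (adjusted p = 0.421). Col18a1, the source of endostatin, stood at 13.24, 12.60, 12.44 and 12.67 in adrenalectomy stomachs, against 12.44, 12.33, 12.25 and 12.45 in sham stomachs. Adrenalectomy replicate 1, the sample with the highest liver marker level, was highest, and Col18a1 did not pass (log2 difference 0.37 ± 0.16 SE, adjusted p = 0.248). Its log2 difference was 0.20 without that sample (adjusted p = 0.210) and 0.20 (adjusted p = 0.456) in a fit that included the liver score.

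Fn1, which encodes fibronectin, an adhesive protein that the liver also secretes into plasma, was highest in the same sample. It stood at 14.47, 13.83, 13.69 and 13.91 in adrenalectomy stomachs, against 13.76, 13.71, 13.65 and 14.01 in sham stomachs. The highest value of each group was in the sample with the most liver RNA, adrenalectomy replicate 1 and sham replicate 4. The log2 difference was 0.19 ± 0.16 SE (adjusted p = 0.546), 0.02 without adrenalectomy replicate 1 and -0.01 in a fit that included the liver score. Of the 8 liver markers, 7 had a higher mean after adrenalectomy and none was called, at summed log2 levels of 16.78 to 18.77 after adrenalectomy and 16.76 to 17.27 in sham stomachs.

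**Figure D5:**
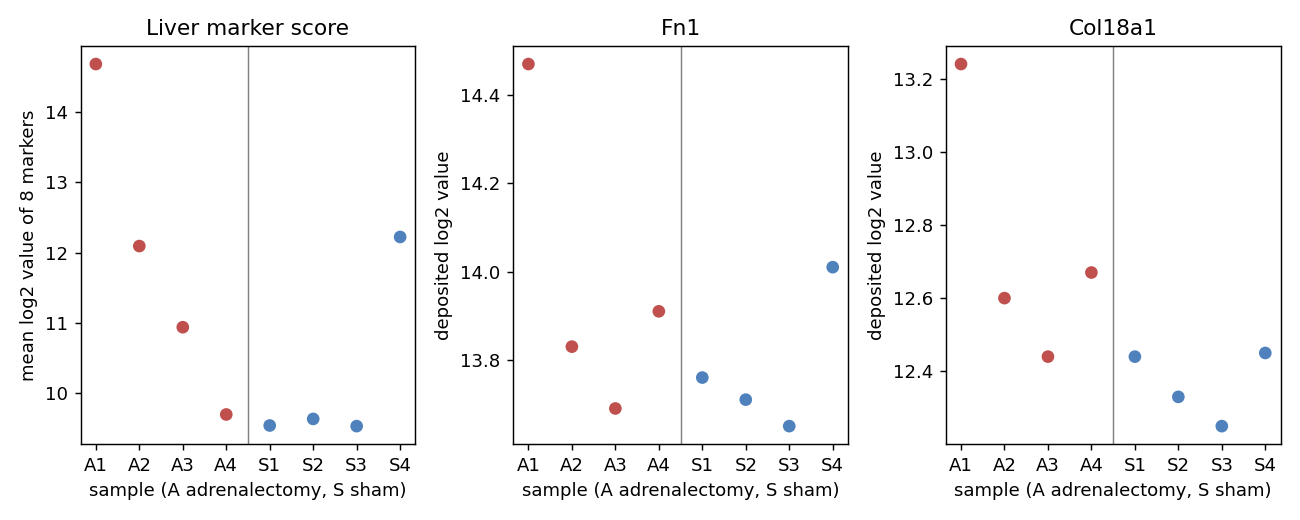
Mean log2 value of 8 liver markers (left), and the deposited log2 values of Fn1 (middle) and Col18a1 (right), in each sample (x axis, adrenalectomy samples A1 to A4 and sham samples S1 to S4). A1 is highest in all panels, at 14.67, 14.47 and 13.24, and S4 is highest of the sham samples in all panels.

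Laminins form the other network of the basement membrane, which nidogen links to collagen IV. Lamb1, the laminin beta 1 chain, stood at 12.58, 12.71, 12.71 and 12.85 in adrenalectomy stomachs, against 12.50, 12.55, 12.32 and 12.52 in sham stomachs. The groups did not overlap, yet Lamb1 did not pass (log2 difference 0.24 ± 0.067 SE, adjusted p = 0.111). It is the only gene of the 41 with separate groups that was not called. The partner chain Lamc1 differed by 0.00 ± 0.037 SE and the nidogen gene Nid1 by 0.03 ± 0.040 SE.

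Small leucine-rich proteoglycans bind collagen fibrils and control their width. Lum, which encodes lumican, stood at 11.87, 11.57, 11.88 and 11.93 in adrenalectomy stomachs, against 11.61, 11.59, 11.68 and 11.70 in sham stomachs. Adrenalectomy replicate 2 lay below all sham samples, and Lum did not pass (log2 difference 0.17 ± 0.076 SE, adjusted p = 0.273). Without that replicate the difference was 0.25 (adjusted p = 0.0536). Dcn and Bgn, which encode decorin and biglycan, differed by -0.04 ± 0.070 SE and -0.10 ± 0.073 SE (adjusted p = 0.760 and 0.498).

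Lysyl oxidases cross-link collagen and elastin. Lox averaged 9.95 ± 0.071 in adrenalectomy stomachs and 10.07 ± 0.084 in sham stomachs (SD, n = 4 each), a log2 difference of -0.13 ± 0.054 SE that did not pass (adjusted p = 0.247). Loxl1 differed by 0.11 ± 0.082 SE (adjusted p = 0.508). Pdgfra, the platelet-derived growth factor receptor that marks many fibroblasts, differed by 0.05 (adjusted p = 0.734), with a 95% interval of -0.11 to 0.20. Of 17 other fibroblast markers none was called, their median log2 difference was 0.05, and their summed log2 level was 14.70 to 14.82 after adrenalectomy and 14.72 to 14.81 in sham stomachs. Tcf21, a transcription factor of fibroblasts, and Dpt, which encodes dermatopontin, had the smallest p-values among them, with log2 differences of 0.29 (adjusted p = 0.0798) and -0.16 (adjusted p = 0.0863).

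Other genes of the matrix and of its control were counted in 7 lists, the fibroblast markers among them, with 180 different tested genes, of which 1 rose and 1 fell, 1.11% against 1.71% of all tested genes. Both are in the list of collagen receptors and the transforming growth factor beta axis, where 1 of 24 genes rose and 1 fell. Tgfb1, which encodes the growth factor that drives matrix production in many tissues, stood at 9.71, 9.76, 9.70 and 9.69 in adrenalectomy stomachs, against 9.39, 9.40, 9.51 and 9.52 in sham stomachs. The groups did not overlap, and Tgfb1 rose 1.20-fold (log2 difference 0.26 ± 0.043 SE, adjusted p = 0.0361). Smad4, the shared signal transducer of this family, stood at 12.13, 12.16, 12.14 and 12.15 in adrenalectomy stomachs, against 12.31, 12.24, 12.25 and 12.31 in sham stomachs. Smad4 fell by 0.13 on the log2 scale (SE 0.023, adjusted p = 0.0393), and its groups did not overlap.

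No gene of collagen biosynthesis and processing was called among 25, with a median log2 difference of 0.04. Serpinh1, which encodes the collagen chaperone Hsp47, differed by 0.19 (adjusted p = 0.0699). Plod2, which hydroxylates collagen lysines for cross-links, differed by -0.25 (adjusted p = 0.0837). Neither passed, although the groups did not overlap for either. Of the 25 genes, 3 were higher and 2 lower without overlap of the groups, where 12.4% of all tested genes did not overlap. Among 27 other collagen genes none was called, and the median was -0.02. Besides Col6a4, the basement membrane collagen gene Col4a4 had the smallest p-value (log2 difference -0.24, adjusted p = 0.136). Among 33 other laminins, basement membrane and adhesive matrix proteins none was called, the median was -0.02, and the tenascin X gene Tnxb came closest (-0.22, adjusted p = 0.0597), followed by Wisp2 (-0.06, adjusted p = 0.150). Among 26 other proteoglycans and elastic fibre proteins the median was 0.00, and Mfap5, a microfibril protein, and Efemp1, a fibulin, had log2 differences of 0.15 (adjusted p = 0.114) and 0.26 (adjusted p = 0.239). Among 29 other matrix proteases and inhibitors the median was 0.03, and the aggrecanase relative Adamts15 and the urokinase gene Plau had log2 differences of 0.25 (adjusted p = 0.0847) and 0.37 (adjusted p = 0.0912). Neither list held a called gene.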

How the data were processed

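The values are log2 expression, normalized by the authors, in 1 table of 24507 gene symbols. Per the submitters' processing notes, Trim Galore, STAR, featureCounts and DESeq2 were used, without versions, with the mouse build mm9. How the log2 values were transformed, and with which annotation, strand setting and filters, is not stated in these sources. The deposited log2 values vary less between samples for low genes, so differences of low genes are understated. The analysis used the 8 columns of these samples, while 8 others were not analysed here. A set of 26 rows with date-like names was left out.

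Genes with a mean linear value of at least 10 were tested, 16889 in all, and 7592 were not. The test was limma (version 3.58.1, R 4.3.3) with a mean-variance trend and no covariate, two-sided. The code was tested on simulated data. The 22 alternative settings, 1 of them chosen after the data were seen (the macrophage score as a covariate), covered filters, variance models, scaling, a pseudocount, a replicate block, tissue scores and left-out samples. The named genes are all called matrix genes, the 2 with the smallest p of each class, and likewise in each other list. Other matrix genes are given by their differences, and Col6a6 was added after its values were seen. The matrix genes, lists and tests were chosen with earlier results of these data known. Exon lengths are unions over GENCODE M21 (GRCm38), and promoters come from RefSeq (GRCm38.p6).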

Additional observations from a re-analysis of the deposited data

Results flagged for a closer look

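In groups of 4, a sample was picked out when its gap to the nearest other sample exceeded Dixon's critical share of the range of the group, at the 95% level. Chance gives this in about 1 of 20 groups, and 6 of the 82 groups checked met it. Adrenalectomy replicate 4 was the highest of its group for 3 collagen genes, at 12.89 for Col5a1 against 12.81 in each of the other samples, at 12.98 for Col5a2 against 12.72 to 12.76, and at 13.78 for Col6a2 against 13.53 to 13.56. Adrenalectomy replicate 2 was the lowest of its group for Lum, at 11.57 against 11.87 to 11.93. Sham replicate 4 was the lowest of its group for Col6a3, at 12.31 against 12.59 to 12.65, and sham replicate 1 for Col14a1, at 9.82 against 10.17 to 10.24. None of these 5 collagen genes or Lum was called with or without the sample.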

How the results depend on the processing

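The 6 called matrix genes kept their direction in all 22 alternative settings, which non-overlapping groups make certain wherever samples are left out. Their calls depended on the setting. The table had 289 called genes, and 170 without the filter on low values, 624 with array weights, 156 with median centring, 112 with the liver score, 5 with the squamous and skeletal muscle score and 0 with the smooth muscle score, the macrophage score or without the 3 samples rich in neighbouring tissue, where 1327, 881 and 1822 genes had an unadjusted p under 0.05. Leaving out 1 sample gave 27 to 633 called genes. Matrix genes called higher numbered 5, against 2 without the filter, 1 with the squamous and skeletal muscle score, 3 with the liver score, 0 with the smooth muscle score, the macrophage score or those 3 samples left out, and 0 to 6 with 1 sample left out. None was left without adrenalectomy replicate 4 or sham replicate 3. The 1 gene called lower, Cilp, became 0 without the filter, with the squamous and skeletal muscle, smooth muscle or macrophage score and without those 3 samples, and 0 to 2 with 1 sample left out. Called metalloproteinases numbered 3, against 1 without the filter, 1 with the squamous and skeletal muscle score, 1 with the liver score, 0 with the smooth muscle score, the macrophage score or those 3 samples left out, and 0 to 4 with 1 sample left out. The causes were not tested. Of 900 values of single matrix genes, 67 lost a call and 2 gained one.

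The replicate numbers are shared between the groups. Same-numbered samples had correlations over genes of -0.29, 0.45, -0.12 and -0.63 for numbers 1 to 4. Differently numbered samples reached 0.63, for adrenalectomy replicate 1 with sham replicate 4, and 0.57, for adrenalectomy replicate 3 with sham replicate 1. These values cannot tell whether the numbers mark pairs, and the numbers were not taken as pairs. With the replicate block limma called 4 genes in the table and 0 matrix genes higher, 0 lower and 0 metalloproteinases, with 2803 genes of the table and 17 matrix genes at an unadjusted p under 0.05.

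Class medians moved by more than the spread between samples mainly with the scores that separate the groups. That spread is the SD of the class mean between samples of a group, not the error of a fitted median. A score that separates the groups leaves the group difference poorly determined, so the medians fitted with it are unstable. With the smooth muscle score they were -0.18 for fibrillar, -0.07 for basement membrane zone and -0.16 for fibril-associated collagens, -0.27 for proteoglycans, -0.07 for laminins and nidogen, -0.29 for adhesive proteins, 0.23 for metalloproteinases, -0.06 for inhibitors, -0.12 for Pdgfra, -0.03 for collagen biosynthesis and -0.14 for other proteoglycans and elastic fibre proteins. With the macrophage score they were 0.01 for fibrillar, -0.11 for basement membrane zone, -0.03 for collagen VI and -0.24 for fibril-associated collagens, -0.31 for proteoglycans, -0.18 for adhesive proteins, 0.28 for metalloproteinases, -0.11 for inhibitors, -0.01 for collagen biosynthesis, -0.05 for other proteoglycans and elastic fibre proteins, 0.02 for receptors and the transforming growth factor beta axis and -0.03 for fibroblast markers. The metalloproteinase median was 0.25 under the filter at a mean of 100, which leaves out Mmp3 and Mmp9, 0.22 with array weights, 0.14 with the squamous and skeletal muscle score, 0.17 without those 3 samples and 0.18 to 0.22 with 1 sample left out. The inhibitor median was -0.05 to 0.01 with 1 sample left out. The median of fibroblast markers was 0.10 in the fit on squamous and skeletal muscle markers and 0.01 to 0.10 with 1 sample left out, and that of other laminins and adhesive proteins was 0.02 without those 3 samples. Depth is unknown, and low genes such as Mmp3, Mmp9 and Timp1 are the least resolved.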
